A study of Homo sapiens with 2 samples.

Results

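Paired summits are the positions in a list of WSTF chromatin immunoprecipitation (ChIP-seq) peaks that lie beside 1 protein-coding gene and a long non-coding RNA (lncRNA) gene at once. A summit, the single base of highest signal within a peak, was counted as paired if it lay within 1 kb of an outer start or end of exactly 1 protein-coding gene and of at least 1 lncRNA gene in the RefSeq gene table of GRCh38.p14. Of the 2697 summits in the list, 424 were paired (15.7%, exact 95% interval 14.4 to 17.2). They involved 415 coding genes and 430 lncRNA genes.

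The cells were SW620, an established human colorectal cancer line grown from a metastasis, and the antibody was directed against WSTF, the product of BAZ1B. The series holds 2 samples of these cells, SW620-IP and SW620, and the labels do not call the second of them the input. The series title speaks of knockdown of WSTF and its design text of overexpression, and the labels do not settle which was profiled. The design text mentions biological replicates and an input control, but a single list of summits was analysed, with no read depth, and every value below describes that list.

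WSTF is a bromodomain protein that partners SMARCA5, a motor protein which slides nucleosomes along DNA. Many human promoters start transcription in both directions. The coding gene runs one way, and a lncRNA runs the other way from a start nearby. Where the lncRNA starts upstream and runs away from the coding gene, it is called divergent and its symbol often ends in DT. Where it runs back across the coding gene, it is called antisense and its symbol often ends in AS and a number. Readthrough transcripts and hosts of small nucleolar RNAs (snoRNAs) are also annotated as lncRNA genes.

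By these symbols, 104 of the 424 paired summits lay at a divergent lncRNA (24.5%, exact 95% interval 20.5 to 28.9) and 109 at an antisense one (25.7%, 21.6 to 30.1). The other 211 (49.8%, 44.9 to 54.6) lay at lncRNA genes with neither ending, and 181 of these had placeholder symbols starting with LOC. A divergent symbol took precedence where a summit lay at several lncRNA genes, which was the case for 16 summits, each at 2 lncRNA genes. The symbol ending is a naming convention and not a measurement in these cells: whether any of these transcripts is made in SW620 was not measured.

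The DNA under some of the highest paired summits is shown first, because it lets the starts and the summit be seen on the same stretch. Each sequence is the RefSeq promoter window of GRCh38.p14, read 5′ to 3′ on the strand of the named gene, from 250 bases before an annotated start to 50 after. Each holds its summit, and 2 or 3 windows are shown for each class. Capitals mark matches, on either strand, to 9 fixed motifs. The GC box was searched as GGGCGG and the box bound by NFY as CCAAT. The ETS motif was searched as CCGGAAGT, the TATA box was searched as TATAAA and the E-box, bound by MYC and related factors, as CACGTG. The cyclic AMP response element (CRE) was searched as TGACGTCA, and 1 fixed string each stood for NRF1, YY1 and ZBTB33/BANP. Matches may overlap, as do those of the GC boxes at bases 109 to 114 and 114 to 119 of MNX1.
ZNRD2, divergent partner ZNRD2-DT, chr11:65570227-65570526, plus strand: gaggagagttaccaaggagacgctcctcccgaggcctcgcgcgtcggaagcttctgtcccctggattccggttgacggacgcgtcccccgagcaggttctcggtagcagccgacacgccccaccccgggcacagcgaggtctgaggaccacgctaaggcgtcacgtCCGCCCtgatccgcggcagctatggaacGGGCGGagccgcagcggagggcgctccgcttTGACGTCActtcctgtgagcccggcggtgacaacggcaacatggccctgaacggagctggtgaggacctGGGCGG
ZNRD2-DT, same locus from the lncRNA side, chr11:65570364-65570663, minus strand: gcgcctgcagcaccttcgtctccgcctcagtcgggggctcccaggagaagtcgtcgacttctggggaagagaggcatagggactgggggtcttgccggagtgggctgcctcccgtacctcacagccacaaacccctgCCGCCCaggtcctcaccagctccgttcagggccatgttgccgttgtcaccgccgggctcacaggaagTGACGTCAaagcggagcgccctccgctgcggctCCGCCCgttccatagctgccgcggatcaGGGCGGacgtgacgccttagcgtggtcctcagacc
RELA, divergent partner RELA-DT, chr11:65662867-65663166, minus strand: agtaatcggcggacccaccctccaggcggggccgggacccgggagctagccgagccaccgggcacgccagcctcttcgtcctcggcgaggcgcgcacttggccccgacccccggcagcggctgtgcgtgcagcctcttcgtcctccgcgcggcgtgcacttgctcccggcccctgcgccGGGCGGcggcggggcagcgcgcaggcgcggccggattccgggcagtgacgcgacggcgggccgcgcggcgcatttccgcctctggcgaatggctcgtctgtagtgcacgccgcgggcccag
RSPH3, antisense partner TAGAP-AS1, chr6:159000138-159000437, minus strand: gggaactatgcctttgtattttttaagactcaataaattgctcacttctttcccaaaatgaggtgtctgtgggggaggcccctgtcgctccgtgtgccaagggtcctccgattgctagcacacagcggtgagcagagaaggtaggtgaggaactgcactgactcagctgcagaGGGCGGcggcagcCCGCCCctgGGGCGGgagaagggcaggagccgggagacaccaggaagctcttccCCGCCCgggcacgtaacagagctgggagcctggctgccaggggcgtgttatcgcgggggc
MNX1, antisense partner MNX1-AS1, chr7:157010614-157010913, minus strand: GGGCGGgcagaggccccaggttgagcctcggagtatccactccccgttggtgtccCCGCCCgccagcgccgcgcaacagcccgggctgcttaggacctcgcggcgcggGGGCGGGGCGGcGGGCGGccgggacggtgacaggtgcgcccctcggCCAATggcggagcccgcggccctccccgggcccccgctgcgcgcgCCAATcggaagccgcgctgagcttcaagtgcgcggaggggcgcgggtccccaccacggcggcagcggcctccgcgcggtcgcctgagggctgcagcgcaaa
SLC7A6, partner LOC124903704, chr16:68264276-68264575, plus strand: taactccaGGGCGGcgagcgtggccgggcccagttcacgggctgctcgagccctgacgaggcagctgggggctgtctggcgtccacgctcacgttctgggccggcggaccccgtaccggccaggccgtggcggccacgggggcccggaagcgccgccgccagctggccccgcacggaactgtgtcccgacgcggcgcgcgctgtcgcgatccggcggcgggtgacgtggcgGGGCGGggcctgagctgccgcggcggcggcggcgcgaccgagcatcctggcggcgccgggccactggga
MTHFSD, partner FLJ30679, chr16:86555186-86555485, minus strand: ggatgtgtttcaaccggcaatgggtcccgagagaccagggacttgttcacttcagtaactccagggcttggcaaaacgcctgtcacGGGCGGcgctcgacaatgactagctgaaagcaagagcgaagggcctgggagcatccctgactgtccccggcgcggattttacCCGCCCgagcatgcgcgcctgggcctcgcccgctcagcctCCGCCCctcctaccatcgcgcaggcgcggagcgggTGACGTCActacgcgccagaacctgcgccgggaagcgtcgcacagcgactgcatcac
TRAF7, partner SNHG19, chr16:2155532-2155831, plus strand: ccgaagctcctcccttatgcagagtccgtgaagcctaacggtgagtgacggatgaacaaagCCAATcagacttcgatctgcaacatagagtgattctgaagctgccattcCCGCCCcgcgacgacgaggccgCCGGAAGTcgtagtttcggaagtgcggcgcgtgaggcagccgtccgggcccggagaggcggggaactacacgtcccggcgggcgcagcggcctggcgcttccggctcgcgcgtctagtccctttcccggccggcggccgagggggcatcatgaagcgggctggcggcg

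In these windows the ZNRD2 summit was base 231 counted from the 5′ end, inside the CRE at bases 226 to 233. Read from ZNRD2-DT, the same summit was base 207 and the same CRE ran from base 205 to 212. The MTHFSD window also held a CRE, 45 bp from the summit at base 199, and the nearest of its 3 GC boxes lay 10 bp from that summit. The MNX1 summit, base 255, lay 51 bp from the nearer of 2 CCAAT boxes. SLC7A6 carried 2 GC boxes, 57 and 161 bp from the summit at base 71, and RELA carried 1, 37 bp from the summit at base 222. RSPH3 carried 4 GC boxes, the nearest 41 bp from the summit at base 287. TRAF7 carried an ETS match 52 bp from the summit at base 192.

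The highest-scoring divergent pair was KLF11, a Krüppel-like transcription factor gene, with KLF11-DT. Its summit at chromosome 2 position 10043890 had a score of 14.0 and lay 340 bp inside KLF11 (10043550 to 10054836) and 489 bp from KLF11-DT (10041553 to 10043401). The score is the authors' −log10 of the q-value of the peak, read as such from its lowest value, and it ranks peaks within this list. CTCF, which encodes the insulator protein, had a summit of 12.1 at chromosome 16 position 67562238. That summit lay 71 bp inside CTCF-DT (67561411 to 67562309) and 288 bp upstream of CTCF (67562526 to 67639177). A second paired summit at CTCF, 672 bp inside the gene, scored 3.02. ETNK1, an ethanolamine kinase gene, had a summit of 11.2 located 131 bp inside the gene, whose 5′ end was 125 bp from that of ETNK1-DT. At ZNRD2 the summit of 10.6 lay in the 64 bp between the starts of ZNRD2 and ZNRD2-DT, 20 bp and 44 bp from them.

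The 4 divergent summits above 10 were placed differently on their pairs: 2 in the coding gene, 1 in the lncRNA and 1 between them. The next were NADSYN1 (9.97), the NAD synthetase gene, RNF32 (9.95), CEP72 (9.59), a centrosomal protein gene, and RELA (8.27), which encodes the NF-kB subunit p65. NADSYN1 was the single divergent-class summit whose lncRNA was named after another gene: its partner DHCR7-DT ran on the same strand and ended 948 bp from the summit. Measured from its outer end, the RELA summit lay 912 bp inside RELA. It lay 61 bp outside RELA-DT, which starts within the outer limits of RELA. From another annotated start of RELA, that of the window printed above, the same summit was 29 bp upstream.

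Among the antisense pairs, RSPH3, a radial spoke protein gene of cilia, scored highest. Its summit at chromosome 6 position 159000151 had a score of 10.9, lay 51 bp inside RSPH3 (158962980 to 159000202) and 278 bp inside TAGAP-AS1, an antisense transcript named after another gene. NARF followed with 9.81, then CAPN1, a calpain protease gene, with 8.08. The summit at NARF (82458198 to 82490537 on chromosome 17) lay inside both NARF and NARF-AS2, as did that at CAPN1 inside CAPN1 and CAPN1-AS1. ZNFX1 had a summit of 7.55 that lay 93 bp inside its neighbour ZFAS1, a snoRNA host, and 214 bp outside ZNFX1. CD63 (7.22), a tetraspanin gene, SGMS1 (7.09), a sphingomyelin synthase gene, MNX1 (6.78), a homeobox gene, and NDFIP2 (6.56), an adaptor of NEDD4-family ubiquitin ligases, completed the 8 highest. The MNX1 summit lay 4 bp inside the gene.

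Among the remaining pairs, SLC7A6, an amino acid transporter gene, had the highest score, 13.4. Its summit at chromosome 16 position 68264346 lay 180 bp upstream of SLC7A6 (68264526 to 68301819) and 111 bp inside LOC124903704. ASPSCR1, a regulator of glucose transporter trafficking, had a summit of 10.6 that lay 20 bp upstream of the gene, between it and LOC105371939. MTHFSD (9.64), PHF13 (9.04), a reader of methylated histone H3, TRAF7 (8.60), a ubiquitin ligase gene, PRELID3B (8.43), DHDDS (8.28), which acts in dolichol synthesis, and SPG7 (7.71), a mitochondrial protease gene, followed. In 7 of these 8 both genes ran on opposite strands with their 5′ ends apart. The exception was PRELID3B, whose partner SLMO2-ATP5E is a readthrough transcript on the same strand. Readthrough symbols of this kind accounted for 7 of the 211 summits.

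The lowest scores of each class were 1.44 for divergent, 1.33 for antisense and 1.65 for other pairs, so each class reached down almost to the lowest score in the list, 1.31. The median score was 4.04 at divergent pairs (order-statistic 95% interval 3.59 to 4.54), 3.83 at antisense pairs (3.42 to 4.36) and 3.76 at other pairs (3.53 to 4.18). These intervals overlapped, and no test was made because summits of 1 list are not replicates. All 424 together had a median of 3.82 (3.72 to 4.12), against 3.72 (3.72 to 3.799) for the 1152 summits at 1 coding gene with no lncRNA. The medians differed by 0.10, and the interval of the first includes the second. Scores of 10 or more were found at 7 paired summits and at 20 of the 1152. The highest paired score was 14.0, whereas summits at 1 coding gene with no lncRNA reached 189.9.

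**Figure D1:**
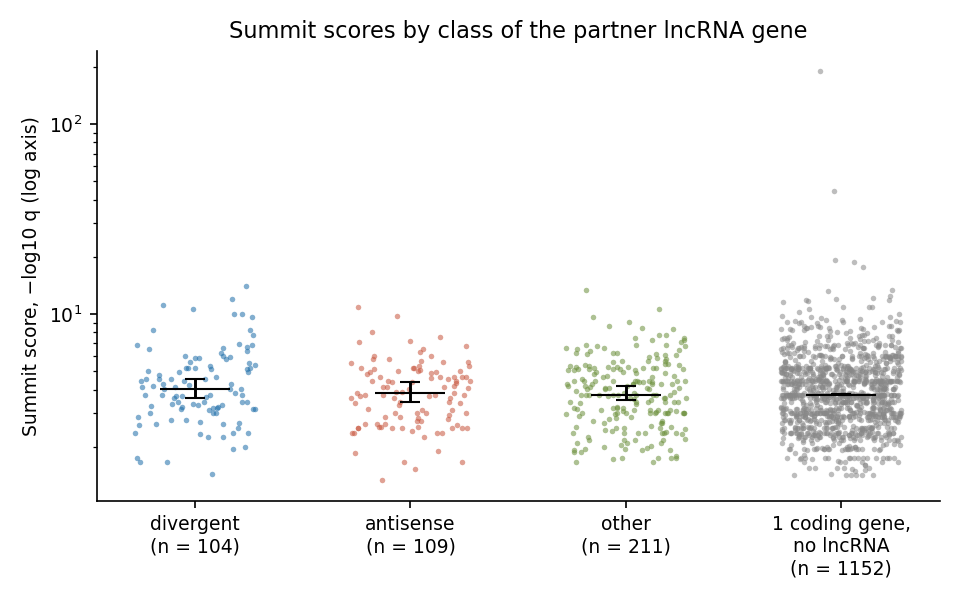
Scores of single summits (points; −log10 q, log axis) at divergent, antisense and other lncRNA pairs and at 1 coding gene with no lncRNA; black marks are medians with order-statistic 95% intervals. The medians lie between 3.72 and 4.04 and the class intervals overlap, while the highest score, 189.9, is at a summit without a lncRNA.

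The strand of a gene, taken from the RefSeq promoter table, shows which of its ends a summit marks. The coding strand was known for 359 paired summits, and 356 of them (99.2%, 97.6 to 99.8) were nearest to the 5′ end. The 3 exceptions were TEX2 with SNHG25, SYCE1L with LOC124903726, and the second summit at ID1, a gene short enough for its 3′ end to be the nearer one. The lncRNA strand was known for 347, and 332 (95.7%, 93.0 to 97.6) lay at the lncRNA 5′ end. This held for 81 of 82 divergent, 85 of 90 antisense and 166 of 175 other lncRNA genes. In 318 pairs with both strands known, 294 (92.5%, 89.0 to 95.1) ran on opposite strands.

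The symbol classes differed in layout. Divergent pairs had their 5′ ends apart, with the lncRNA starting upstream of the coding gene, in 66 of 79 cases (83.5%, 73.5 to 90.9) and overlapping in 12 (15.2%, 8.10 to 25.03). Antisense pairs had them apart in 32 of 82 (39.02%, 28.4 to 50.4) and overlapping in 42 (51.2%, 39.9 to 62.4), so the AS ending covered both arrangements. The antisense symbol began with that of the paired coding gene at 73 of 109 summits, against 103 of 104 for divergent symbols. The rest include antisense transcripts named after a neighbouring gene, and these layout counts were not split by naming. Other pairs had them apart in 100 of 157 (63.7%, 55.7 to 71.2), although their symbols do not say so. Of the 103 summits whose lncRNA carried the coding symbol followed by DT, 88 (85.4%, 77.1 to 91.6) lay at genes whose outer limits did not overlap. These layouts come from the annotation. Annotated pairs of ends within 1 kb of each other, with both strands known, were counted with or without a summit. The 5′ ends lay apart in 80.1% of 443 divergent, 28.5% of 582 antisense and 42.7% of 1532 other pairs of ends. The shares apart at divergent and antisense summits hold these values within their intervals, and the order of the classes is that of the annotation. Overlapping 5′ ends made up 11.1% of the divergent and 39.5% of the antisense annotated pairs. The first lies within the interval at summits, and the second just below its own. The share apart at other summits lay above its value. In every class the annotated count also takes in pairs meeting by 3′ ends, so these shares rest on unlike counts.

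Where the 5′ ends lay apart, the gap between them was short. Its median was 178 bp over all 198 such summits (quartiles 102 and 281), and 178, 166 and 173 bp at divergent, antisense and other pairs. The annotated pairs of this layout with starts within 1 kb of each other, with or without a summit, had a median gap of 149 bp (n = 1175). Under the same limit the summits had a median of 172.5 bp (n = 196). Of the 198 summits, 69 (34.8%, 28.2 to 41.9) lay in the gap, 86 (43.4%, 36.4 to 50.6) inside the coding gene and 43 (21.7%, 16.2 to 28.1) inside the lncRNA. At divergent pairs the counts were 21 in the gap, 35 in the coding gene and 10 in the lncRNA. At antisense pairs of this layout they were 9, 12 and 11, and at other pairs 39, 39 and 22. The gap is short beside the 1 kb window on either side, so these shares are not densities.

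**Figure D2:**
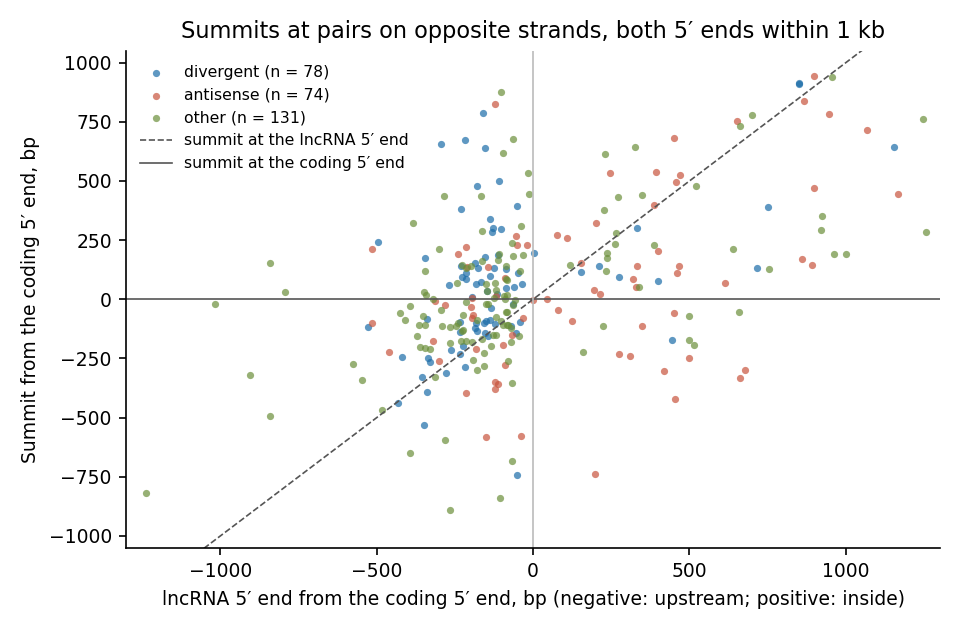
Summit position (y axis, bp from the outer coding 5′ end) against the position of the lncRNA 5′ end (x axis, bp, negative is upstream) at 283 opposite-strand pairs, 1 point per summit, coloured by class. Points gather near both starts, with most lncRNA starts upstream; antisense pairs extend to the right, where the 5′ ends overlap.

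Measured from the outer coding 5′ end, the median divergent summit lay 64.5 bp inside the gene (interval -36 to 110, n = 88) and the median antisense summit 65 bp inside (-10 to 140, n = 93). The median of the other pairs was -11 bp, that is upstream of the gene (-52 to 33, n = 175). The 3 intervals overlapped. At antisense pairs the sign depends on which start is used: from the annotated start nearest to the summit, the medians were 16 bp at divergent, -46 bp at antisense and -59 bp at other pairs (n = 88, 93 and 178). Summits within 250 bp of both partners made up 50 of 104 divergent (48.1%, 38.2 to 58.1), 33 of 109 antisense (30.3%, 21.8 to 39.8) and 88 of 211 other summits (41.7%, 34.98 to 48.7). Antisense summits were often in both genes: 28 of 109 (25.7%, 17.8 to 34.9), against 11 of 104 divergent (10.6%, 5.399 to 18.1) and 31 of 211 other summits (14.7%, 10.2 to 20.2). Overlap of the genes themselves makes such a position possible, and antisense pairs overlapped in 61 of 109 cases, divergent ones in 15 of 104.

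**Figure D3:**
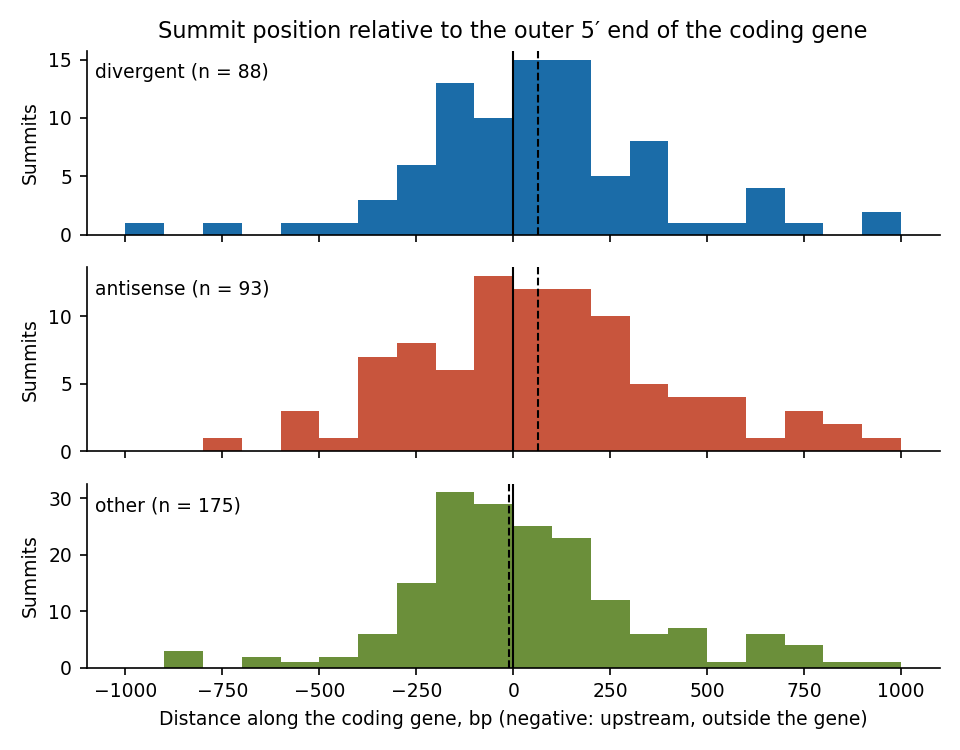
Histograms of summit position relative to the outer 5′ end of the coding gene (bp, 100 bp bins, negative is upstream) for divergent, antisense and other pairs with known strand and the summit at the 5′ end; the solid line is the 5′ end and the dashed line the median. The medians are 64.5, 65 and -11 bp (16, -46 and -59 bp from the nearest annotated start, not drawn), and the distributions of the 3 classes overlap.

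How often paired genes carried a summit was set against genes without a lncRNA partner. There were 570 protein-coding genes with a divergent lncRNA end within 1 kb of an end of their own. Of these, 114 (20%, exact 95% interval 16.8 to 23.5) carried at least 1 summit within 1 kb of either end. That end was not required to be the one beside the lncRNA, here or in the shares that follow for coding genes. The share was 18.3% (15.6 to 21.2) of 772 genes with an antisense partner and 14.2% (12.7 to 15.7) of 2070 with another lncRNA, against 10.7% (10.2 to 11.1) of 16625 genes with no lncRNA partner and 11.6% of all 20037. Any lncRNA partner together gave 16.1% of 3412. The intervals of each of the 3 classes lay above that of genes with no partner. They cover counting error only, and neighbouring genes are not independent. Counted from the lncRNA side, a summit was found at 19.1% of 592 divergent, 7.64% of 2028 antisense and 2.36% of 15683 other lncRNA genes, against 3.49% of all 18303, most of which have no coding gene so near. Of all lncRNA genes, 2.35% lay at a paired summit.

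The same shares were counted by promoter composition. A 300-base promoter window was called CpG-rich if its GC share was at least 50% and its ratio of observed to expected CpG at least 0.6. Among coding genes with a CpG-rich promoter, a summit was found at 22.4% (18.5 to 26.7) of 419 with a divergent partner, 21.6% (18.1 to 25.5) of 490 with an antisense one and 18.2% (16.0 to 20.5) of 1206 with another lncRNA. Genes with a CpG-rich promoter and no partner had one in 16.9% (16.1 to 17.7) of 7881 cases. Within CpG-rich promoters the divergent share was thus still above that without a partner, by a smaller ratio than over all genes, and the interval for other lncRNA genes overlapped it. Genes whose promoter was not CpG-rich had a summit in 6.25% of 48 with a divergent partner (1.31 to 17.2), 10.4% of 134 with an antisense one (5.83 to 16.9) and 5.96% of 453 with another lncRNA (3.96 to 8.55), against 2.9% of 5212 without one (2.46 to 3.39). These 3 shares were above the share without a partner, by larger ratios than over all genes. The divergent interval, with 3 genes behind it, overlapped that of genes with no partner, and the other 2 did not. Expression and open chromatin were not measured here, and their part in these shares was not tested.

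The share also followed the layout of the pair. Over all annotated pairs of a coding and a lncRNA gene end within 1 kb of each other, 13.2% of 3779 had a summit within 1 kb of both ends. Genes with several such pairs of ends were counted at each, and the summit could also lie near further coding genes. By symbol this was 18.6% (15.6 to 22.0) of 601 divergent, 15% (12.7 to 17.6) of 845 antisense and 11.1% (9.85 to 12.4) of 2333 other pairs. It was 17.9% (15.7 to 20.2) of 1175 pairs with opposed 5′ ends apart, 15.4% (12.4 to 18.7) of 540 with overlapping 5′ ends and 23.9% (17.1 to 31.9) of 138 with both 5′ ends on the same strand. Where the coding 5′ end met a lncRNA 3′ end it was 10.8% (7.43 to 15.1) of 277, and where a coding 3′ end met a lncRNA 5′ end it was 5.14% (2.38 to 9.54) of 175. Pairs that met by both 3′ ends had 1 summit in 252 (0.397%, 0.01 to 2.19). For 1222 pairs with a strand missing it was 10.8%. Among pairs with opposed 5′ ends apart, it was 14.4% (10.9 to 18.5) for gaps up to 100 bp, 17.1% (13.6 to 21.1) for gaps over 100 and up to 200 bp, 25.2% (20.1 to 30.9) for gaps over 200 and up to 400 bp and 15.5% (10.1 to 22.4) for gaps over 400 and up to 1000 bp.

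**Figure D4:**
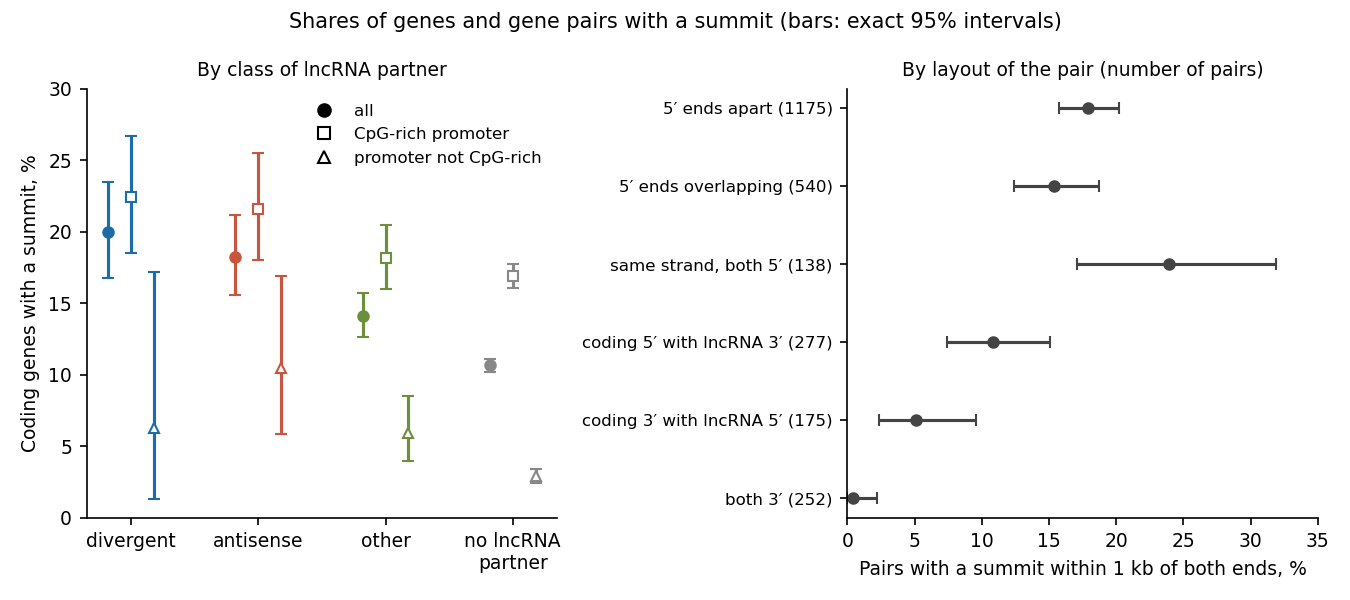
Left, percent of coding genes that carry a summit (1 kb window at either end), by class of lncRNA partner, for all genes (circles) and by CpG content of the promoter (squares, CpG-rich; triangles, not). Right, percent of annotated pairs of coding and lncRNA gene ends with a summit within 1 kb of both ends, by layout. Bars are exact 95% intervals; the highest share is 22.4% on the left, at CpG-rich genes with a divergent partner, and 23.9% on the right, at pairs with both 5′ ends on the same strand, and the lowest on the right is 0.397%, at pairs meeting by both 3′ ends.

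The promoters of paired coding genes were rich in CpG. The median window held 33 CpG at divergent, 30 at antisense and 31 at other paired summits (n = 87, 91 and 173 genes with a window). Coding genes with a lncRNA of the same class within 1 kb of either end, and no summit, had medians of 28, 25 and 24 (n = 370, 504 and 1413). These sets also take in genes whose lncRNA lies at the 3′ end, away from the promoter window. The paired summits were nearly all at the coding 5′ end, so the sets are not defined alike. Genes with a summit and no lncRNA partner had 30, and all 15843 coding genes with a window had 22. Of the lncRNA genes at divergent paired summits, 98.8% had a CpG-rich window, as did 84.1% at antisense and 84.6% at other paired summits, against 24.1% of all 11462 lncRNA genes with a window. Most lncRNA genes have no coding gene end within 1 kb. Those that lie beside a coding gene without a summit were not counted separately.

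**Figure D5:**
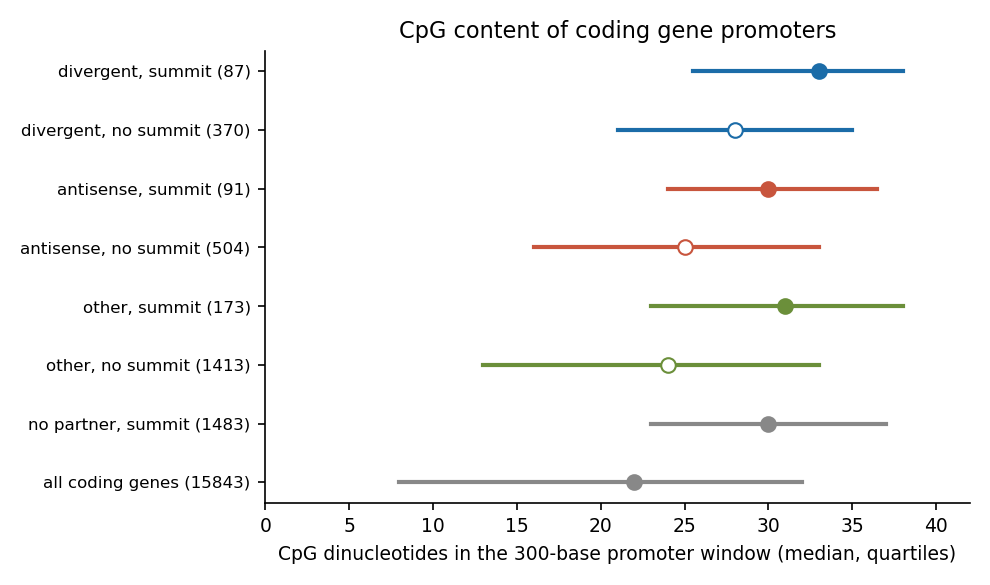
CpG dinucleotides per 300-base promoter window of coding genes (points, median; bars, quartiles), with the number of genes in brackets, for each class with a summit (filled) and without one (open), for genes with a summit but no lncRNA partner, and for all coding genes. Each class has a higher median with a summit (33, 30 and 31) than without (28, 25 and 24). The sets without a summit also take in genes whose lncRNA lies at the coding 3′ end.

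The GC box, recognised by SP and KLF factors, was in the windows of 76.6% of the 351 paired coding genes, against 58.3% of all coding genes and 44.5% of all promoters in the table. It was as frequent, 77.8%, at genes with a summit and no lncRNA partner. The CCAAT box, bound by NFY, was in 47.1% of divergent, 36.3% of antisense and 35.8% of other paired coding windows, against 36.5%, 35.3% and 34.5% in the same classes without a summit, 36.0% at genes with a summit and no lncRNA partner, 36.4% of all coding windows and 35.7% of all promoters. The ETS letters were in 8.83%, the NRF1 letters in 3.70%, the E-box in 12.3% and the CRE in 3.99% of paired coding windows, against 10.2%, 3.57%, 12.2% and 4.05% at genes with a summit and no lncRNA partner, 6.16%, 1.77%, 8.82% and 2.56% of all coding windows and 4.42%, 1.37%, 7.41% and 1.97% of all promoters. The TATA box was in 4.84% of them, against 3.71% at genes with a summit and no lncRNA partner, 9.75% of all coding windows and 12.02% of all promoters. The YY1 letters were in 2.28% and the ZBTB33/BANP letters in 1.42%, against 2.49% and 0.94% at genes with a summit and no lncRNA partner, 1.33% and 0.67% of all coding windows and 0.89% and 0.47% of all promoters. For the ETS, NRF1, E-box, CRE, TATA, YY1 and ZBTB33/BANP letters the paired genes were nearer to other genes with a summit than to all coding genes. Few paired genes stand behind some of these shares: 5 for ZBTB33/BANP, 8 for YY1, 13 for NRF1 and 14 for the CRE. No intervals were made for them, so nearness at such counts is only described. The CRE was in 2.30% of divergent, 4.40% of antisense and 4.62% of other paired windows, against 4.86%, 3.77% and 1.91% without a summit. For the ETS letters the shares were 9.20%, 4.40% and 11.0%, against 10.5%, 8.93% and 6.02%. The CRE was thus rarer with a summit in the divergent class, with 2 genes behind it. So were the ETS letters in the divergent and antisense classes, with 8 and 4 genes. The NRF1 letters were more frequent with a summit in each class, on 4 divergent, 3 antisense and 6 other genes. The E-box was more frequent with a summit in the divergent and other classes, and about as frequent in the antisense class (11.0% against 10.5%). In these comparisons too, the classes without a summit take in genes whose lncRNA lies at the 3′ end. A match is a string of letters and does not show that a factor was bound.

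The summit itself lay in the coding window in 165 of 359 cases (46.0%, 40.7 to 51.3), taking for each gene the annotated start nearest to the summit. For lncRNA windows it was 150 of 347 (43.2%, 37.9 to 48.6), and of 318 summits with both windows in the table, 90 lay in both, 61 in the coding window alone, 49 in the lncRNA window alone and 118 in neither. In the 165 coding windows that held a summit, a GC box was present in 142 and covered the summit base in 11. CREs were present in 8 windows, at ZNRD2, MTHFSD, NF1, LPP, C11orf24, DUSP1, ZNF143 and AMN1, and 1 of them, at ZNRD2 as printed above, covered the summit base.

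Several pairs belong to known functional groups, which are described here by their counts. All protein-coding genes had a paired summit in 2.07% of cases. Transcription factor genes had one at 24 of 812 (2.96%, 1.90 to 4.37), with KLF11 (14.0), KLF2 (6.84), ZNF703 (6.80) and ZNF33B (6.26) scoring highest. KLF2, KLF10 and KLF11 are Krüppel-like factors, and most of the 24 have a ZNF symbol. The interval held the share of all coding genes. Genes of chromatin regulators had one at 9 of 165 (5.45%, 2.52 to 10.1), an interval that lay above the share of all coding genes, but their share with any summit within 1 kb of an end was also high, 29.7% against 11.6%. They were PHF13 (9.04), the remodeller gene CHD1 (6.37) with CHD1-DT, ARID3B (5.20), SETD5 (4.36), ACTR2 (4.30), an actin-related gene of the ARP2/3 complex that the symbol pattern took in, PHF12 (3.87), the demethylase gene KDM7A (3.25), the histone methyltransferase gene SETD2 (3.02) and the deacetylase gene HDAC4 (2.52).

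The intervals of the other groups held 2.07%. RNA processing genes had a paired summit at 5 of 179 (2.79%), with the spliceosome gene PRPF19 highest (6.22), its summit 9 bp inside the gene opposite PRPF19-DT. Mitochondrial protein genes had 6 of 244 (2.46%), including the complex I genes NDUFA6 (7.71) and NDUFV1 (3.32), both beside a divergent lncRNA, and the import receptor gene TOMM34 (6.09). Cell cycle and repair genes had 4 of 208 (1.92%), CCNL2, CDK16, POLE4 and ORC2, with scores from 3.72 to 5.54. Trafficking and ubiquitin genes had 12 of 393 (3.05%), led by the small GTPase genes RAB18 (6.84) and RAB4A (5.32). The RAB4A summit lay 2 bp inside RAB4A and 41 bp inside RAB4A-AS1.

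Among lncRNA genes with an end within 1 kb of a coding gene end, 13% of 3176 lay at a paired summit. For the snoRNA host genes of that kind it was 7 of 21 (33.3%, 14.6 to 57.0), an interval that begins above that share with 21 genes behind it. They were SNHG19 beside TRAF7 (8.60), ZFAS1 beside ZNFX1 (7.55), SNHG1 beside the amino acid transporter heavy chain gene SLC3A2 (6.47), SNHG31 beside the BRCA1 partner gene BARD1 (5.37), SNHG25 beside TEX2 (3.34), SNHG4 beside MATR3 (3.07) and SNHG10 beside GLRX5 (1.87). The SNHG1 summit lay between the starts of SNHG1 and SLC3A2, 159 bp and 65 bp from them. SNHG4 and MATR3 run on the same strand, and their summit was 151 bp from both.

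Of the much studied lncRNA genes with an end that near to a coding gene, 5 of 17 (29.4%, 10.3 to 56.0) lay at a paired summit. SNHG1 (6.47) was one of them. HIF1A-AS1 lay at a summit of 5.60 that was 241 bp upstream of HIF1A, the hypoxia factor gene, and inside the lncRNA. TMPO-AS1 had a summit of 3.29, HOTTIP, which lies at the end of the HOXA cluster beside HOXA13, one of 2.36, and MIR22HG, the host of miR-22 beside WDR81, one of 1.73. The last 3 scores were below the list median of 3.72.

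A coding gene had 2 paired summits in 9 cases and never more. They were CTCF, BRAF, AGPAT5, ATP6V0E2, DDIT4, GDI2, ID1, MBOAT2 and STK40. At BRAF, the kinase gene of the RAS pathway, the higher summit (6.16) lay 166 bp upstream of the gene, 3 bp inside LOC105375536, and the lower one (3.25) lay 287 bp inside BRAF. At DDIT4, a stress-induced inhibitor of mTORC1, both scores were low, 1.86 and 2.41. Summits of 1 gene share their target and were counted singly.

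The window sets the membership. The paired summits nearest to its edge were at DUSP1 (3.16), 995 bp from LOC105377730, and CLYBL (7.11), 994 bp from LOC105370332. The nearest summits left out were 1003 bp from DSP-AS1 (3.81) and 1007 bp from LOC124903479 (3.66).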

How the data were processed

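ChIP-seq for WSTF in SW620 cells was represented by 1 deposited list of summits. Per the submitters' processing notes, Trimmomatic 0.39, Bowtie2 2.4.4 and MACS2 2.2.7.1 were used with build hg38, and per the series' design text peaks were called against input DNA. How replicates entered the list is not stated in the labels. The deposited score was read as the authors' −log10 of the q-value, because its lowest value, 1.31, lies just above the 1.30 of a q of 0.05. The read depth is unknown.

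Distances were taken to gene ends in the RefSeq gene table of GRCh38.p14, which shares the chromosome coordinates of hg38, using 20037 protein-coding and 18303 lncRNA genes on chromosomes 1 to 22, X and Y. The table gives outer limits without strand. Strand, annotated starts and sequences came from the RefSeq promoter table of the same build, which held a window for 359 paired coding genes' summits and 347 paired lncRNA genes' summits. Summits without one were left out of strand and sequence counts. Among these were all 16 paired summits on chromosome 8. Composition and motif shares used the outermost annotated start of each gene.

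Shares carry exact Clopper-Pearson 95% intervals and medians order-statistic 95% intervals, both covering counting error only. The motif and CpG-rich shares of promoter windows were given without intervals. No test was made between classes, because summits of 1 list are not replicates. The pair search was tested on simulated data. The pairs named are the 8 highest-scoring summits of each class, those at 3 or more lncRNA genes (none was found), members of 8 gene lists and those at the window's edge; genes with 2 summits, genes with a CRE and strand exceptions were added after their values were seen. The pairs and the lists were chosen with earlier results of these data known. A window was CpG-rich at a GC share of at least 50% and an observed over expected CpG ratio of at least 0.6. Alternatives were other windows, a score minimum, symbol filters and other class definitions. Python 3.11.15, pandas 2.3.3, numpy 2.4.6, scipy 1.17.1 and matplotlib 3.10.9 were used.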

Additional observations from a re-analysis of the deposited data

How the results depend on the processing

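Of 97 alternative values over 15 settings, 85 stayed within the interval of the value reported or, for a count, within 1.5 times of it. Some of the 85 could not move. Leaving out the 3 highest-scoring summits removed no paired summit, and symbol filters on LOC and LINC cannot change the layout of named DT pairs. Taking the class of the nearest lncRNA gene cannot change the number of paired summits or the score difference. Leaving out lncRNA genes with LOC symbols lowered the number of paired summits to 244 and gave shares of 42.6% divergent, 44.7% antisense and 12.7% other; leaving out LINC symbols as well gave 236 summits and 44.1%, 46.2% and 9.75%. The class shares therefore depend on whether placeholder genes are counted. At or above the list median score 232 paired summits remained by construction. The share within 250 bp of both partners, 40.3%, was 55.9% with a window of 500 bp and 32.1% with 2 kb, which changes the summits admitted. The share of genes with a divergent partner that had a summit, 20%, was 11.8% with summits at or above the list median alone, a setting with fewer summits (5.55% without a partner); this and the other alternatives for that share were chosen after seeing the data. The difference in median score, 0.10, was between 0.03 (chromosome 19 left out) and 0.14 (1 summit for each coding gene) over 13 settings that share most summits. Its interval is that of the paired median less the other median taken as fixed, so the error of the latter is left out. It reached 0 or below in 13 of 13. No paired analysis was possible because the values come from 1 list without replicate columns. With the depth unknown, absence of a summit at a pair does not show absence of WSTF.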

Other observations

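The share of summits that were paired was 25.9% of 135 summits on chromosome 10 (exact 95% interval 18.8 to 34.2) and 22.7% of 66 on chromosome 13 (13.3 to 34.7), against 15.7% in the whole list. It was 11.0% of 227 on chromosome 17 (7.26 to 15.8), 10.5% of 171 on chromosome 19 (6.36 to 16.1) and 7.59% of 79 on chromosome 14 (2.84 to 15.8). Chromosome 10 held 22 summits at lncRNA genes of the other class, more than chromosome 1 (16) from fewer summits. Chromosome 11, with 264 summits the most of any chromosome, held 15 of the 104 divergent summits, among them ZNRD2, NADSYN1, RELA and PRPF19. Its paired share, 14.0%, was below that of the whole list. Chromosome 5 held 8 divergent summits from 106 summits. Of these 5 intervals, that of chromosome 10 alone left out 15.7%, although those of chromosomes 14, 17 and 19 reached little above it. The chromosomes were picked after their values were seen, and no test was made.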
